A study of Mus musculus with 12 samples.

Results

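Neuregulin 1 is a growth factor that tells Schwann cells, the glia of peripheral nerves, how much myelin to make. The form carried on axons binds ErbB3 on the Schwann cell, and ErbB3, which has little kinase activity of its own, signals as a dimer with the kinase ErbB2. Surface proteases decide how much of the ligand is active: BACE1 cleaves it in a way that promotes myelination, whereas ADAM17 (TACE) cleavage inhibits it. The inactive rhomboid proteins iRhom1 and iRhom2, encoded by Rhbdf1 and Rhbdf2, carry ADAM17 to the cell surface. ADAM10, a relative of ADAM17, sheds many of the same kinds of surface proteins.

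The transcripts of these 8 genes (Nrg1, Erbb2, Erbb3, Adam17, Bace1, Adam10, Rhbdf1 and Rhbdf2) were followed through the RNA-seq of mouse sciatic nerve. They were chosen by name, as the ligand, its receptors and the proteins that control its cleavage, and all 8 were found among the 43432 genes of the count table and among the 17257 genes that passed the filter on low counts. Each of 12 libraries came from the nerve of 1 mouse at 1 month of age, on a 129/SvPas background per the study's methods. The control group carried Mtmr2 wt/wt (libraries 4497 to 4500). The Mtmr2 null group carried Mtmr2 -/- and received no treatment per the labels (4501 to 4504), whereas the study's text speaks of vehicle for the mutants set against niacin, so "untreated" here means not given niacin. The Mtmr2 null niacin group carried the same Mtmr2 -/- genotype and received niacin (4505 to 4508), injected intraperitoneally at 120 mg/kg between days 10 and 21 after birth and given by gavage in a slow-release form between days 21 and 30. Each group held 3 males and 1 female. No niacin-treated control group was analysed here, so an action of niacin in nerves with Mtmr2 was not measured. Mtmr2 encodes a phosphoinositide phosphatase, and its loss in mice models the demyelinating neuropathy CMT4B1, in which myelin folds outward. The null allele is carried in every cell of the animal, and the tissue is whole nerve, so fewer cells of a type and less RNA per cell cannot be told apart in any value below.

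Library totals ran from 20763951 to 33191106 counts, with the niacin libraries (20983641 to 22935378) all below the control libraries (26653828 to 28390961). Mtmr2 itself was at 161, 130, 128 and 137 CPM (counts scaled by the library total, after correction by edgeR's TMM factor, to a common sum) in the control libraries. It was at 71.6, 84.7, 143 and 69.5 CPM in the libraries labelled Mtmr2 null 4501 to 4504, and between 66.8 and 73.5 CPM in the niacin group. The library labelled Mtmr2 null 4503 thus lay within the control range. Library 4502 stood apart in composition, with 228 CPM summed over 11 markers of neuron cell bodies and axons, against 37.7 to 81.8 CPM in the other libraries. Libraries 4506 and 4507 held 3404 and 3167 CPM summed over 7 skeletal muscle markers, against 33.3 to 98.5 CPM elsewhere. Schwann cell markers, which define the labelled tissue, were high throughout: 9 markers of myelinating Schwann cells summed to between 54466 and 81139 CPM. Results are therefore also given without these libraries.

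Among the 8 genes, promoter sequences were held by the RefSeq table used here for 3, and those of Erbb2 and Adam17 are shown, the receptor with the largest difference between treated and untreated Mtmr2 null nerves and the protease that differed in the other direction. Each run is the 250 bases before the RefSeq start on GRCm38.p6, read 5′ to 3′ on the gene's strand. Capitals mark GC boxes (GGGCGG, or CCGCCC on the other strand). The Erbb2 run lies at chr11:98412234-98412483 on the + strand and the Adam17 run at chr12:21373633-21373882 on the - strand.
Erbb2: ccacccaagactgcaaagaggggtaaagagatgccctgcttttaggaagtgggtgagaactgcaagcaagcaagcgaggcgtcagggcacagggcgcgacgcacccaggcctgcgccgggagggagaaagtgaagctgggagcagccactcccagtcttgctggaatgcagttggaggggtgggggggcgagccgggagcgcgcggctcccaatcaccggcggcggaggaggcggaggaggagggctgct
Adam17: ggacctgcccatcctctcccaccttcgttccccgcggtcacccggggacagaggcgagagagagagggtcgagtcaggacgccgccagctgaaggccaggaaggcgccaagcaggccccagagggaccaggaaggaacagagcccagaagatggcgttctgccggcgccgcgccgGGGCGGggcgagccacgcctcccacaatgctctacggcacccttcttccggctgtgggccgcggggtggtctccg

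The Erbb2 run was 66% G and C and held no GC box, whereas the Adam17 run was 70.4% G and C and held 1. The run of Adam10, not shown, was 74% G and C and held 3. Adam10 differed by 0.08 on the log2 scale between niacin-treated and untreated Mtmr2 null nerves. Across 32851 RefSeq promoters of the same length, 32.7% held at least 1. None of the 3 runs held the letters ACAAAG (a SOX core, in 16.5% of all promoters), GTAAACA (a FOXO core, in 3.17%) or GCGTGGG (an EGR core, in 4.30%) on either strand. These are matches of letters within this window only.

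On a scale of CPM per kilobase of exon, which allows genes to be compared with each other, Adam10 was by far the most abundant of the 8 in control nerve, at 169 ± 23.6 (SD, n = 4). The receptors followed, with Erbb3 at 32.2 ± 4.44 and Erbb2 at 18.2 ± 1.51, with Rhbdf1 between them at 24.3 ± 0.855. Adam17 was at 14.4 ± 1.28, Bace1 at 12.03 ± 1.36 and Rhbdf2 at 6.42 ± 0.595. Nrg1 was the lowest, at 0.0904 ± 0.0246. In this order Adam17 and Bace1 overlapped (13.01 to 15.6 against 10.2 to 13.4), while no other neighbours did. The place of Adam17 depended on the length used: per kilobase of the longest transcript it was at 23.1 and Erbb2 at 19.0, so that their order turned. Erbb3 stayed second and Nrg1 last in all 3 groups per kilobase of exon.

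**Figure D1:**
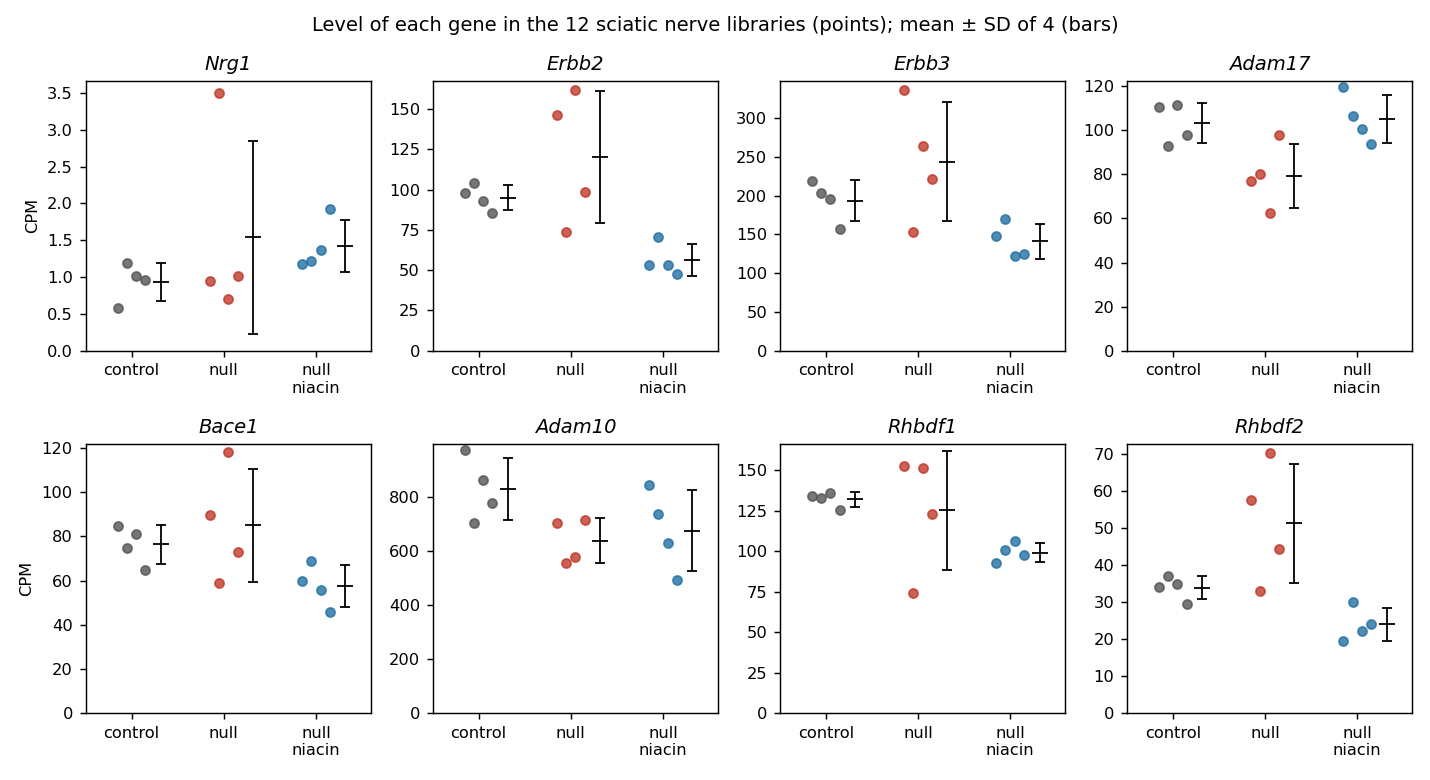
Level of each of the 8 genes in CPM (vertical axes from 0) in the 12 libraries, by group. Points are libraries in the order of their numbers, and bars are the mean and SD of 4. Erbb2 and Rhbdf2 are lower in all 4 niacin libraries than in any Mtmr2 null library, and the Mtmr2 null libraries spread the most for all genes but Adam10.

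Nrg1 (ENSMUSG00000062991, GRCm38 chr8:31814551-32884029, - strand), the ligand, was barely detected in the nerve, with 16 to 78 counts per library. The neurons that make the axonal form have their cell bodies outside the nerve, and these counts do not separate the Nrg1 isoforms. Its levels were 0.582, 1.19, 1.02 and 0.957 CPM in control, 0.941, 3.497, 0.705 and 1.01 CPM in Mtmr2 null and 1.18, 1.21, 1.37 and 1.93 CPM in Mtmr2 null niacin. A single library, 4502, was above all the others, and the groups otherwise overlapped or lay close together. Mtmr2 null versus control differed by 0.70 on the log2 scale (SE 0.45, adjusted p = 0.449; each adjusted p is from the quasi-likelihood test of edgeR, adjusted by Benjamini-Hochberg over all genes tested, unless another tool is named). Without library 4502 that difference was -0.093. Library 4502 was also the one with the high neuron markers, whose part in the Nrg1 value was not tested. Niacin-treated versus untreated Mtmr2 null nerves differed by -0.093 (SE 0.45, adjusted p = 0.928, 95% interval -0.97 to 0.79). The sign turned, to 0.044, when libraries were scaled by their totals alone. Without library 4502 the difference was 0.67 (SE 0.31, adjusted p = 0.124). Niacin-treated versus control nerves differed by 0.60 (SE 0.46, adjusted p = 0.408).

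Erbb2 (ENSMUSG00000062312, chr11:98412470-98437716, + strand), the kinase partner in the receptor dimer, was lower in niacin-treated than in untreated Mtmr2 null nerves. It was at 97.9, 104, 93.0 and 85.3 CPM in control, at 146, 73.7, 162 and 98.6 CPM in Mtmr2 null, and at 52.9, 70.8, 53.3 and 47.7 CPM in Mtmr2 null niacin. All 4 niacin libraries lay below every library of both other groups, while the Mtmr2 null libraries fell on either side of control. Under niacin Erbb2 fell by 1.10 on the log2 scale (SE 0.22, adjusted p = 0.0401, exact permutation p = 0.0286, two-sided and the smallest that 4 against 4 can give), from 120 ± 41.0 to 56.2 ± 10.1 CPM (SD, n = 4). Over all genes tested, 1.43% were called in this comparison, and 0.73% were called lower with niacin. Against control, niacin-treated nerves differed by -0.76 (SE 0.21, adjusted p = 0.0963, exact permutation p = 0.0286), and untreated Mtmr2 null nerves by 0.34 (SE 0.21, adjusted p = 0.432).

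Erbb3 (ENSMUSG00000018166, chr10:128567523-128589652, - strand), the receptor that binds neuregulin, followed the same order of groups but did not pass the test. Its levels were 219, 203, 196 and 156 CPM in control, 337, 153, 264 and 222 CPM in Mtmr2 null and 148, 171, 122 and 124 CPM in Mtmr2 null niacin. Only the Mtmr2 null library 4502 reached down into the niacin range, and the niacin library 4506 reached into the control range. The log2 fold change under niacin was -0.79 (SE 0.21, adjusted p = 0.0786, exact permutation p = 0.0571). Without library 4502 it was -0.97, with an adjusted p of 0.00541 (23.6% of all genes were called there). Without library 4503 it was -0.75, with an adjusted p of 0.176. Erbb3 also passed with DESeq2 on all 12 libraries (adjusted p = 0.0176, 1059 genes called) and with limma-voom (adjusted p = 0.0147, 2007 genes called). It did not pass with DESeq2 (adjusted p = 0.0836) or edgeR (adjusted p = 0.240) on only the 2 groups compared. With 1 library left out it passed in 1 of 12 fits. Against control, Mtmr2 null nerves differed by 0.33 (SE 0.21, adjusted p = 0.432) and niacin-treated nerves by -0.46 (SE 0.21, adjusted p = 0.202).

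The ratio of Erbb2 to Erbb3 in the same library was 0.495 ± 0.0432 in control (SD, n = 4), 0.493 ± 0.0819 in Mtmr2 null and 0.398 ± 0.0348 in Mtmr2 null niacin. The niacin libraries ran from 0.358 to 0.437 and the control libraries from 0.446 to 0.545, so these groups did not overlap. The Mtmr2 null libraries, at 0.434 to 0.612, overlapped both. These ratios are given as a description, without a test. In level, niacin and control libraries did not overlap for 31.4% of all genes, and no such share is given for ratios.

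Adam17 (ENSMUSG00000052593, chr12:21323509-21373632, - strand), the protease that limits neuregulin, moved in the opposite sense to the receptors, with no comparison passing the test. Its levels were 111, 93.1, 111 and 98.0 CPM in control, 77.1, 80.0, 62.4 and 97.7 CPM in Mtmr2 null, and 120, 107, 101 and 94.0 CPM in Mtmr2 null niacin. Of the Mtmr2 null libraries, 3 lay below all others and the remaining 1, 4504, lay among control and niacin. Mtmr2 null versus control gave -0.38 (SE 0.14, adjusted p = 0.196) and niacin versus untreated Mtmr2 null gave 0.41 (SE 0.14, adjusted p = 0.137), each with an exact permutation p of 0.0571. Niacin-treated nerves and control differed by 0.03 (SE 0.14), with a 95% interval of -0.25 to 0.30. The gene shares 311 exon bases with Iah1 on the other strand, and the sources used here do not give whether counting used strand.

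Bace1 (ENSMUSG00000032086, chr9:45838580-45864399, + strand), the protease that promotes myelination through neuregulin, was at 84.8, 74.6, 81.1 and 65.0 CPM in control. It was at 89.8, 58.8, 118 and 73.0 CPM in Mtmr2 null and at 59.95, 68.8, 55.6 and 45.9 CPM in Mtmr2 null niacin. All 3 groups overlapped. Under niacin the log2 fold change was -0.56 (SE 0.19, adjusted p = 0.135), and -0.72 without library 4502 (adjusted p = 0.0131). Without library 4503 it was -0.36 (adjusted p = 0.379). Against control, Mtmr2 null nerves differed by 0.15 (SE 0.19, adjusted p = 0.708), a difference of -0.049 without the library labelled Mtmr2 null 4503, and niacin-treated nerves by -0.41 (SE 0.19, adjusted p = 0.209). Of the 6348 exon bases of Bace1, 975 are shared with Rnf214 and 135 with the antisense gene Gm16536, so part of these counts could belong to those genes.

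Adam10 (ENSMUSG00000054693, chr9:70678997-70780229, + strand) was at 974, 705, 865 and 778 CPM in control, 706, 558, 579 and 715 CPM in Mtmr2 null, and 846, 738, 630 and 493 CPM in Mtmr2 null niacin. The niacin libraries ran from below every other library to within the control range. Mtmr2 null versus control gave -0.38 (SE 0.18, adjusted p = 0.311), niacin versus untreated Mtmr2 null 0.08 (SE 0.18, adjusted p = 0.835) and niacin versus control -0.30 (SE 0.18, adjusted p = 0.315).

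The ratio of Bace1 to Adam17, which act in opposite ways on neuregulin, was lower in every niacin library (0.489 to 0.644) than in every control (0.663 to 0.802) or Mtmr2 null library (0.735 to 1.896). In Mtmr2 null nerves it was 1.14 ± 0.545 (SD, n = 4), with the libraries 4501 at 1.17 and 4503 at 1.896 above control and the libraries 4502 at 0.735 and 4504 at 0.747 within the control range. The ratio of Adam10 to Adam17 was 8.02 ± 0.538 in control, 8.19 ± 1.21 in Mtmr2 null and 6.37 ± 0.833 in Mtmr2 null niacin. Here too the niacin libraries (5.25 to 7.08) lay below the control libraries (7.57 to 8.79), but they overlapped the Mtmr2 null libraries (6.98 to 9.28). In level, niacin libraries did not overlap control for 31.4% of all genes and Mtmr2 null for 7.01%. No such share is given for ratios.

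Rhbdf2 (ENSMUSG00000020806, chr11:116598165-116627019, - strand), which encodes the ADAM17 carrier iRhom2, was the other gene that passed the test. Its levels were 34.1, 37.1, 35.0 and 29.6 CPM in control, 57.5, 33.05, 70.2 and 44.4 CPM in Mtmr2 null, and 19.6, 30.1, 22.3 and 24.2 CPM in Mtmr2 null niacin. All Mtmr2 null libraries but 4502 lay above control, and all niacin libraries lay below the Mtmr2 null ones. Under niacin it fell by 1.09 on the log2 scale (SE 0.20, adjusted p = 0.0401, exact permutation p = 0.0286), from 51.3 ± 16.1 to 24.0 ± 4.45 CPM (SD, n = 4). Mtmr2 null versus control gave 0.60 (SE 0.20, adjusted p = 0.170), and niacin versus control gave -0.50 (SE 0.20, adjusted p = 0.169).

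Rhbdf1 (ENSMUSG00000020282, chr11:32209585-32222300, - strand), which encodes iRhom1, had a narrow range in control, at 134, 133, 136 and 125 CPM. It was at 153, 74.0, 151 and 123 CPM in Mtmr2 null and at 92.7, 101, 106 and 97.5 CPM in Mtmr2 null niacin. The niacin libraries all lay below control, and the Mtmr2 null libraries included the highest and the lowest of the 12. Niacin versus control gave -0.41 (SE 0.18, adjusted p = 0.191, exact permutation p = 0.0286), niacin versus untreated Mtmr2 null -0.34 (SE 0.18, adjusted p = 0.325) and Mtmr2 null versus control -0.08 (SE 0.18, adjusted p = 0.856). Without library 4502 the last was 0.10, and niacin versus untreated Mtmr2 null was -0.53 with an adjusted p of 0.00623. Without library 4503 these were -0.18 (adjusted p = 0.626) and -0.23 (adjusted p = 0.636).

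The ratio of Rhbdf2 to Rhbdf1 separated the Mtmr2 null libraries from all others. It was 0.255, 0.280, 0.257 and 0.236 in control, 0.377, 0.447, 0.465 and 0.362 in Mtmr2 null, and 0.211, 0.299, 0.210 and 0.248 in Mtmr2 null niacin. Unlike the levels, this ratio placed library 4502 with the rest of its group. In level, Mtmr2 null libraries did not overlap control for 9.32% of all genes and niacin for 7.01%. No such share is given for ratios. Of 8 ratios computed, 4 are given here and 4, to Sox10, among the additional observations, all as descriptions without a test.

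**Figure D2:**
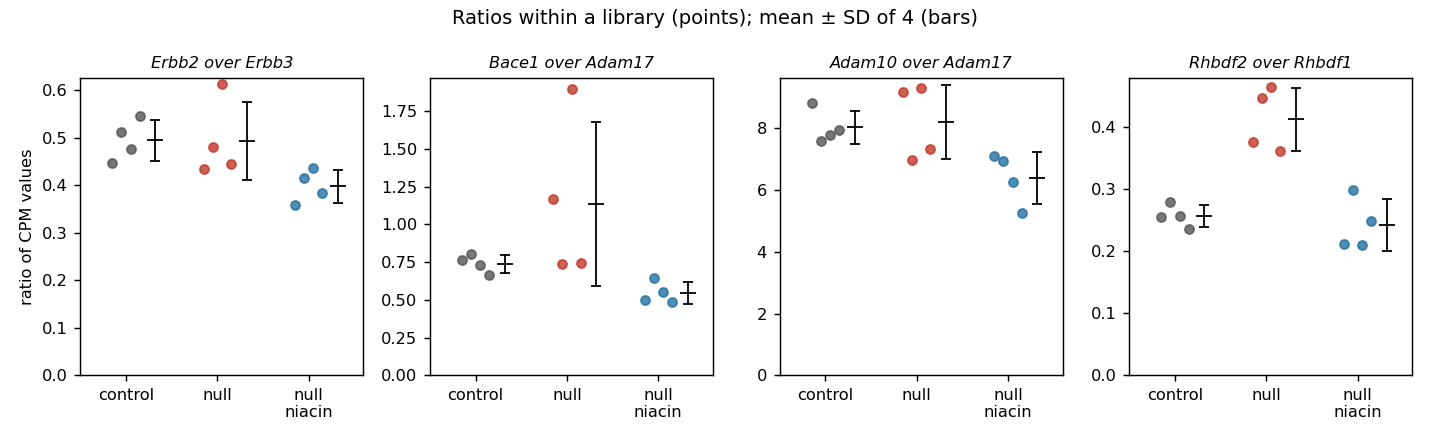
Ratios of CPM values between 2 genes in the same library (vertical axes from 0), by group. Points are libraries, bars the mean and SD of 4. For Rhbdf2 over Rhbdf1 the Mtmr2 null libraries, at 0.362 to 0.465, lie above all control and niacin libraries, and for Bace1 over Adam17 the niacin libraries lie below all others.

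Set side by side, 5 of the 8 genes were higher and 3 lower in Mtmr2 null nerves than in control, with 0 called by edgeR (0.267% of all genes tested were called), 2 at an unadjusted p under 0.05 (17.2% of all genes), and 0 by DESeq2 on all 12 libraries (3.71% of all genes) or limma-voom (0.626%). Their median log2 fold change was 0.24, against 0.03 over all genes tested. Under niacin 6 were lower and 2 higher, with 2 called against the 1.43% given above, and 5 at an unadjusted p under 0.05 (20.1% of all genes). Their median was -0.45 against -0.04 over all genes. In niacin versus control, 6 were lower and 0 called by edgeR, which called 0% of all genes, with 4 at an unadjusted p under 0.05 (24.7% of all genes), 1 called by DESeq2 on all 12 libraries (7% of all genes) and 6 by limma-voom (42.4%). Groups did not overlap for 2 of the 8 genes in niacin versus untreated Mtmr2 null nerves (7.01% of all genes), for 2 in niacin versus control (31.4%) and for 0 in Mtmr2 null versus control (9.32%). The comparisons share libraries and are not independent of each other.

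**Figure D3:**
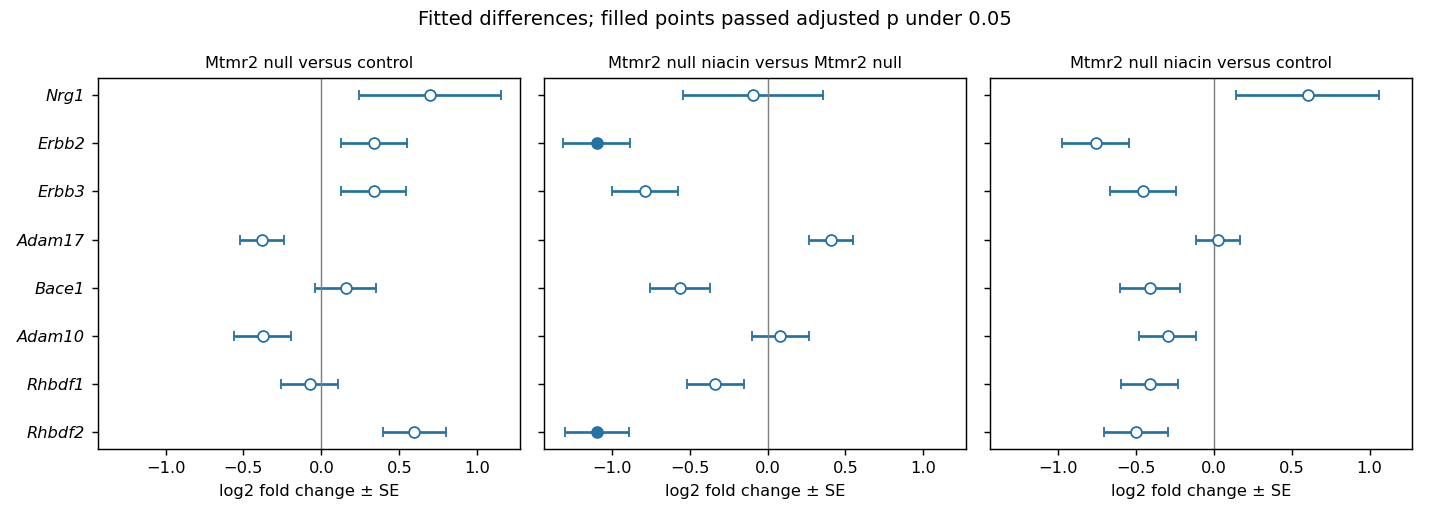
Fitted log2 fold change and SE (horizontal axis) of each gene in the 3 comparisons, from 1 edgeR model over 12 libraries. Filled points passed an adjusted p under 0.05: Erbb2 and Rhbdf2 in niacin-treated versus untreated Mtmr2 null nerves, and no other.

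The 2 calls depended on which libraries entered the fit. They were kept in 7 of 9 other settings fixed for the fit and lost in edgeR on only the 2 groups compared (adjusted p = 0.174 for each) and with Xist as a covariate for sex (adjusted p = 0.0528 for Erbb2 and 0.0515 for Rhbdf2). With 1 library left out they were kept in 2 of 12 fits, without 4502 (adjusted p = 0.00343 and 0.00320) and without 4504 (0.0227 and 0.0223). In the other 10 fits the adjusted p was 0.0595 to 0.153 for Erbb2 and 0.0587 to 0.153 for Rhbdf2, although the log2 fold change stayed between -1.28 and -0.92 for Erbb2 and between -1.27 and -0.90 for Rhbdf2 over all 12. Without 4502 23.6% of all genes tested were called, and Erbb3, Bace1 and Rhbdf1 were among them. Without the muscle-rich libraries 4506 and 4507, 0 genes were called by edgeR in this comparison, and Erbb2 was at -1.26 and Rhbdf2 at -1.24 (adjusted p = 0.276 for each).

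**Figure D4:**
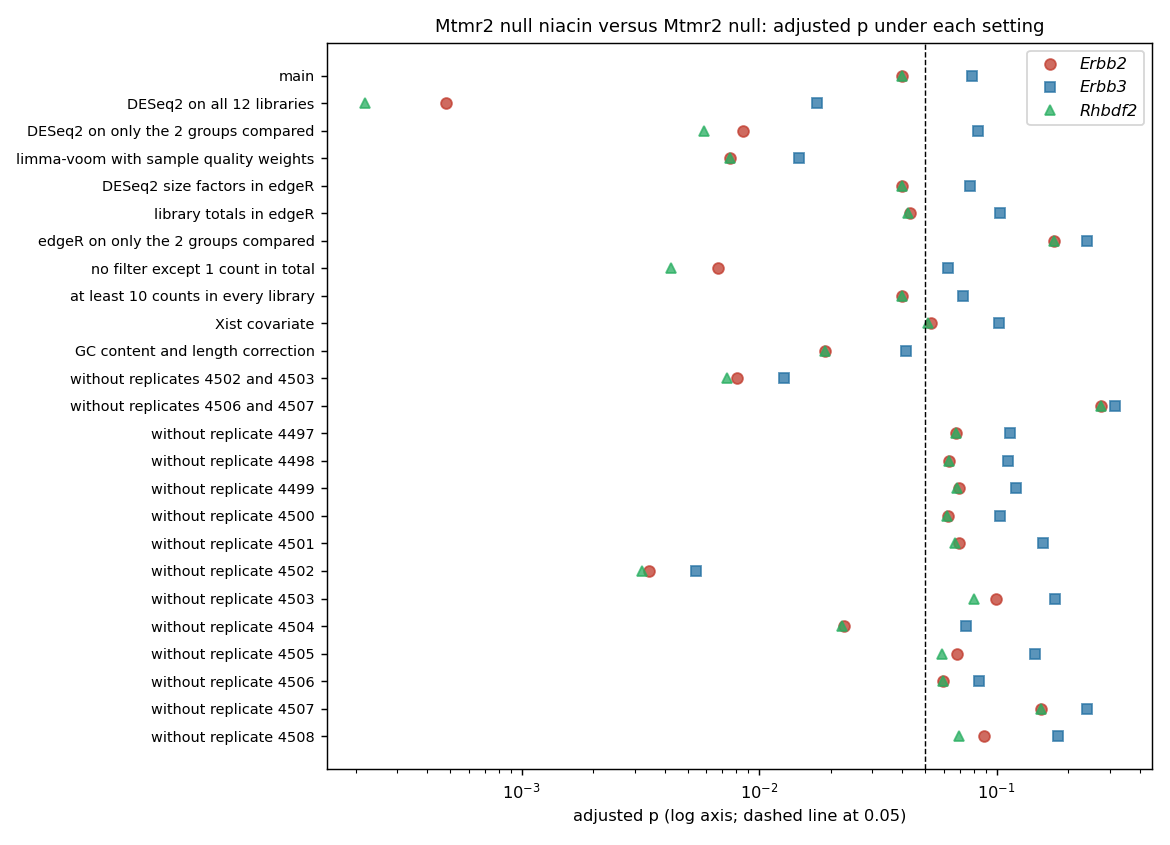
Adjusted p (horizontal log axis, dashed line at 0.05) of Erbb2, Erbb3 and Rhbdf2 in niacin-treated versus untreated Mtmr2 null nerves under the main fit and each other setting (rows). Erbb2 and Rhbdf2 move together, from 0.000479 and 0.000219 with DESeq2 on all 12 libraries to 0.276 without 4506 and 4507.

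For 7 of the 8 genes the spread between libraries was widest in the Mtmr2 null group. Adam10 was the exception, with an SD of log2 CPM of 0.19 in Mtmr2 null, 0.20 in control and 0.34 in Mtmr2 null niacin. For Erbb2 the SD of log2 CPM was 0.52 in Mtmr2 null, 0.12 in control and 0.24 in Mtmr2 null niacin, and for Rhbdf1 it was 0.49, 0.05 and 0.08. Libraries 4501 and 4503 each were among the highest 2 of 12 for 5 of the 8 genes (Erbb2, Erbb3, Bace1, Rhbdf1 and Rhbdf2). They were also the deepest libraries, at 29466207 and 33191106 counts, and 4503 is the one with Mtmr2 in the control range. Without 4503, Erbb2 under niacin was at -0.92 (adjusted p = 0.0991) and Rhbdf2 at -0.90 (adjusted p = 0.0800). The part of depth in these values was not tested.

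**Figure D5:**
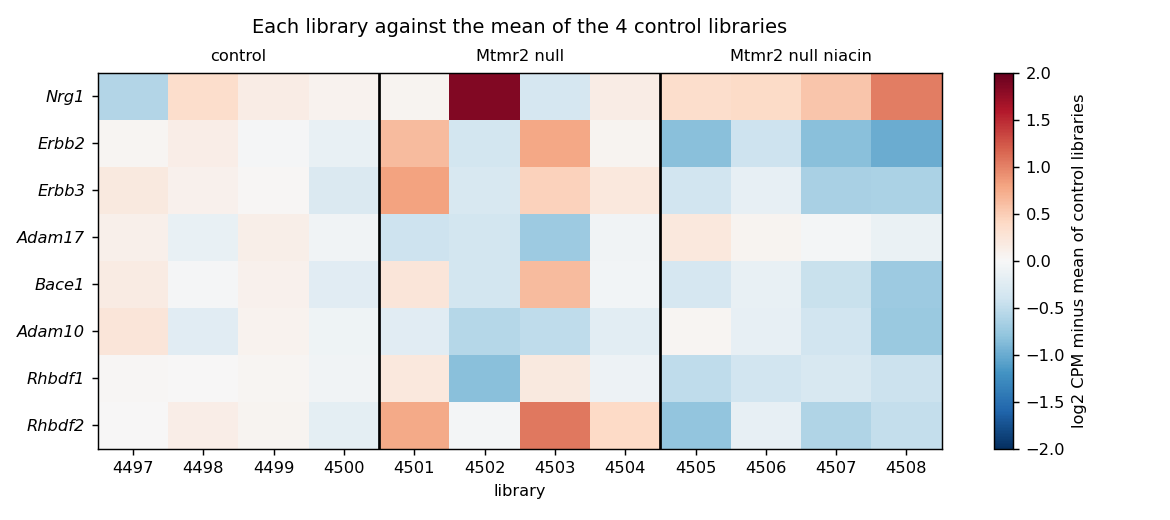
Log2 CPM of each gene (rows) in each library (columns, grouped) minus the mean of the 4 control libraries, with red for higher and blue for lower. Erbb2, Erbb3, Bace1 and Rhbdf2 are red in 4501 and 4503, Nrg1 is reddest in 4502, and Erbb2, Erbb3, Bace1, Rhbdf1 and Rhbdf2 are blue in all 4 niacin libraries.

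The transcripts of Rhbdf2, Erbb2 and Rhbdf1 held 58.7%, 57.3% and 56.8% G and C, those of Erbb3 and Bace1 51.2% and 50.0%, and those of Adam17, Nrg1 and Adam10 45.1%, 42.7% and 42.1%. In niacin-treated versus untreated Mtmr2 null nerves, Rhbdf2, Erbb2 and Rhbdf1 differed by -1.09, -1.10 and -0.34. Erbb3 and Bace1 differed by -0.79 and -0.56, and Adam17, Nrg1 and Adam10 by 0.41, -0.09 and 0.08. Whether GC content causes these differences was not tested. Each library was then corrected for the GC content and length of genes. In the same comparison the log2 fold change was then -0.85 for Erbb2 and -0.88 for Rhbdf2 (adjusted p = 0.0190 for each). Erbb3 passed at -0.66 (adjusted p = 0.0416). Niacin versus control was reduced to -0.36 for Erbb2, -0.12 for Rhbdf2 and -0.020 for Rhbdf1. In Mtmr2 null versus control Rhbdf2 then passed at 0.75 (adjusted p = 0.0309).

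Schwann cell transcripts were also compared under niacin. All 9 markers of myelinating Schwann cells were lower in niacin-treated than in untreated Mtmr2 null nerves, with a median of -0.53. Of these, 0 were called by edgeR (1.43% of all genes) and 5 had an unadjusted p under 0.05 (20.1%). Against control, 5 were lower and 4 higher with niacin (median -0.03), and 8 were higher in Mtmr2 null (median 0.17). Their sum ran from 54466 to 81139 CPM with niacin, from 74784 to 80582 CPM in Mtmr2 null and from 55892 to 68936 CPM in control. The niacin library 4505 was above all untreated ones. Of 7 markers of non-myelinating Schwann cells, 5 were lower and 2 higher under niacin, with 0 called. Sox10, the factor that defines the Schwann lineage, was at 729, 278, 453 and 509 CPM in Mtmr2 null and at 288, 353, 270 and 247 CPM in Mtmr2 null niacin, a difference of -0.77 on the log2 scale (SE 0.23, adjusted p = 0.103). Sox10 passed in the same comparison with DESeq2 on all 12 libraries (adjusted p = 0.0363, 1059 genes called) and with limma-voom (adjusted p = 0.0119, 2007 genes called). It also passed without library 4502 (-0.97, adjusted p = 0.00561, 4180 genes called), the only such call in 12 fits with 1 library left out. It did not pass with DESeq2 (adjusted p = 0.146) or edgeR (0.284) on only the 2 groups. Nor did it with library totals (0.140), Xist (0.137) or the GC and length correction (0.0990). Markers of adipocytes were higher under niacin in 7 of 7, and those of skeletal muscle in 7 of 7. Of these, 1 and 4 were called (1.43% of all genes). The muscle markers summed to 3404 and 3167 CPM in niacin libraries 4506 and 4507, but to 80.3 and 98.5 CPM in 4505 and 4508. Their sum was 33.3 to 77.7 CPM in control and 33.7 to 68.7 CPM in Mtmr2 null. The adipocyte sum was 2167 to 4417 CPM with niacin and 2586 to 3406 CPM in control. It was 4564 CPM in Mtmr2 null library 4502 and 754 to 1903 CPM in the other Mtmr2 null libraries. No marker on these lists was at 0. The part of cell composition in the Erbb2 and Rhbdf2 values was not tested.

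The wider pathway was described by 9 lists holding 107 other genes, of which 101 were tested. In Mtmr2 null versus control, 0 were called by edgeR (0.267% of all genes), 17 had an unadjusted p under 0.05 (17.2%), and 69 were lower (46.0%). In niacin-treated versus untreated Mtmr2 null nerves, 1 was called (1.43% of all genes), 18 had an unadjusted p under 0.05 (20.1%) and 69 were lower (54.1%). In niacin versus control, 0 were called by edgeR (0% of all genes), 36 had an unadjusted p under 0.05 (24.7%) and 78 were lower (48.5%).

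Among other ligands of the family, 6 of 10 were tested and none was called in any comparison. Tgfa and Hbegf, which bind the EGF receptor, were the most abundant by count, at 96.9 and 48.3 CPM over the 12 libraries. Nrg4 had the smallest p, at -0.87 (SE 0.33, adjusted p = 0.201) in Mtmr2 null versus control and 1.14 (SE 0.33, adjusted p = 0.0919) under niacin. Of 13 other receptors and receptor regulators, none was called. Cadm4, an adhesion molecule of Schwann cells, was at 1608 CPM, and Erbin, a partner of ErbB2, had the smallest p in Mtmr2 null versus control, at 0.29 (SE 0.11, adjusted p = 0.204).

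Of 10 ADAM17 maturation partners and inhibitors, none was called, and in niacin versus control 7 of them had an unadjusted p under 0.05, against 24.7% of all genes. Furin, which removes the prodomain of ADAM17, was lower with niacin than in control in every library, at 39.8 ± 2.03 against 67.2 ± 8.16 CPM (SD, n = 4; log2 fold change -0.76, SE 0.19, adjusted p = 0.0847). Timp2 and Timp3, metalloprotease inhibitors, were the most abundant of this list. Timp2 was at 534 ± 79.3 CPM with niacin, 612 ± 142 CPM in Mtmr2 null and 860 ± 33.7 CPM in control, with adjusted p = 0.0922 for niacin versus control. Of the tetraspanins that escort ADAM10, 5 of 6 were tested and none was called. Tspan33 gave -1.24 under niacin (SE 0.36, adjusted p = 0.0931), at levels of about 1 CPM or less.

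Of 7 other sheddases none was called. Adam19, another protease able to cleave neuregulins, was lower in all Mtmr2 null than in all control libraries. Groups did not overlap for 9.32% of all genes in that comparison. Adam19 was at 22.8 ± 7.65 against 37.1 ± 3.05 CPM (log2 fold change -0.70, SE 0.20, adjusted p = 0.118). It was at 35.3 ± 4.27 CPM with niacin (0.63 against Mtmr2 null, SE 0.20, adjusted p = 0.115). Of 7 gamma-secretase genes none was called, and Aph1c came nearest, at -1.02 under niacin (SE 0.24, adjusted p = 0.0506). Of 12 ADAM17 substrates 11 were tested and none was called. The smallest p under niacin was that of Il6ra, at -1.15 (SE 0.35, adjusted p = 0.104).

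Below the receptors, none of 25 adaptors and kinases was called in any comparison. Grb2, which links ErbB receptors to Ras, had the smallest p under niacin, at -0.62 (SE 0.19, adjusted p = 0.108), and Pik3cb in Mtmr2 null versus control, at -0.42 (SE 0.11, adjusted p = 0.104). Mapk3, which encodes ERK1, was at 649 CPM over the 12 libraries and differed by -0.26 under niacin (adjusted p = 0.433).

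Among 17 transcription and feedback genes, Etv4 was the only call, and it was higher with niacin. It was the 1 call among the 101 pathway genes tested, against 1.43% of all genes called in that comparison. Etv4 encodes an ETS factor that ERK signalling induces. It was at 10.4, 6.83, 9.58 and 9.46 CPM in control, 6.97, 4.62, 4.29 and 7.89 CPM in Mtmr2 null, and 13.5, 11.6, 14.7 and 12.7 CPM in Mtmr2 null niacin. The niacin libraries lay above all others. Niacin libraries did not overlap Mtmr2 null for 7.01% of all genes and control for 31.4%. Under niacin Etv4 rose by 1.15 (SE 0.21, adjusted p = 0.0401). Its adjusted p was 0.00742 to 0.153 when 1 library was left out, under 0.05 in 4 of 12 such fits. Dusp4, a feedback phosphatase of ERK, was lower in all Mtmr2 null than in all control libraries, which did not overlap for 9.32% of all genes. Dusp4 was at 7.84 ± 4.01 against 24.5 ± 3.29 CPM (log2 fold change -1.63, SE 0.33, adjusted p = 0.0526). Spry1, another inhibitor of the same cascade, gave -0.66 in niacin versus control (SE 0.15, adjusted p = 0.0833).

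The tested genes whose log2 CPM ran most like each of the 8 over the 12 libraries are given by Pearson's r, as a description over libraries that share group, depth and composition. For Erbb2 these were Klhl21 (r = 0.989), Zbtb39 (0.985) and Arvcf (0.985), and for Erbb3 Ralgds (0.967), Pim2 (0.967) and Xpo7 (0.965). For Rhbdf2 they were Cbx2 (0.976), Rnf225 (0.973) and Cdkn1b (0.973), and for Rhbdf1 Otud5 (0.987), Atp8b2 (0.986) and Cacfd1 (0.975). For Bace1 they were Vezf1 (0.986), Npc1 (0.985) and Kank4 (0.979). Adam17 ran with Itga2 (0.974), Asrgl1 (0.966) and Trim2 (0.961), and Adam10 with Lman2 (0.943), Lama4 (0.934) and Itga6 (0.927). Nrg1 ran with Zfp760 (0.971), Phospho2 (0.963) and 5430403G16Rik (0.952). Leaving out the 2 libraries farthest from the median of each gene gave r between 0.813 and 0.991.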

How the data were processed

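Per the labels, polyA-selected RNA was sequenced by Illumina HiSeq in paired reads. The authors mapped reads with STAR to GRCm38 and deposited whole-number read counts per Ensembl gene, without normalization; the submitters' processing notes also name CASAVA 1.9 and DESeq2. Not given in the sources used here: counting program, annotation release, use of strand. Gene symbols were taken from the deposited comparison tables, whose fold changes, standard errors and p-values by the authors were not used. Columns of per-sample counts left unmapped numbered 0.

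The 8 members, the lists, motifs and tests were chosen with earlier results of these data known. Counts were fitted in R 4.3.3 with edgeR 4.0.16: filterByExpr with 3 groups, TMM scaling and 1 quasi-likelihood model over 12 libraries, two-sided, with a gene called where the adjusted p (Benjamini-Hochberg) was under 0.05. The SE is the log2 fold change divided by the square root of F, and 95% intervals are 1.96 SE to each side. Log2 levels used a prior count of 2. Exact permutation tests enumerated the 70 divisions of 8 libraries into 4 and 4. Each library is 1 mouse. Lengths, GC content and coordinates came from GENCODE M21 on GRCm38, found for 42548 of 43432 genes. Counts over 20763951 to 33191106 per library limit precision mainly for Nrg1. The fit was tested on simulated data. DESeq2 1.42.0, limma-voom (limma 3.58.1), other scalings, filters and samples, Xist as a covariate and each library left out were tried. The GC and length correction by splines with 5 degrees of freedom and leaving out 4502 with 4503 or 4506 with 4507 were chosen after seeing the data.

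Genes outside the 8 are named by rule: in each list the called genes, otherwise from the 2 most abundant and the smallest p per comparison, not all of which are reported, and for each member the 3 tested genes of highest r. Adam19 in Mtmr2 null versus control, Timp2 and Sox10 were chosen after their values were seen. A marker of the list for myelinating Schwann cells is not reported here, and the list is given without it.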

Additional observations from a re-analysis of the deposited data

Results flagged for a closer look

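Of 24 groups of 4 libraries, 8 genes in 3 groups, 1 held a library far from the other 3: Nrg1 in Mtmr2 null, where library 4502 was at 3.497 CPM. Its gap to the next library was 0.891 of the group's whole range, above Dixon's 95% critical value for 4 samples. Chance flags about 1 in 20 groups, so 1 of 24 is near what chance alone gives. The value rests on 78 counts, and the same library held the highest sum of neuron markers, at 228 CPM. The part of these markers in the value was not tested.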

How the results depend on the processing

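The log2 fold changes of the 8 genes in 3 comparisons kept their direction and side of the threshold in 491 of 576 alternative fits, passed the test only in the alternative in 37, lost it in 26 and changed sign in 22. Calls among the 8 genes are given with the number called over all genes (17257 in the main fit) in brackets. Under niacin versus untreated Mtmr2 null they numbered 2 (246). They became 4 with limma-voom (2007) and 5 without 4502 and 4503 (2223). They became 0 with edgeR on only the 2 groups (0), with Xist as a covariate (50) or without 4506 and 4507 (0). For Mtmr2 null versus control they numbered 0 (46) and became 1 with the GC and length correction (201). For niacin versus control they numbered 0 (0) and became 1 with DESeq2 on all libraries (1057). They became 5 with DESeq2 (5777) or edgeR (5586) on only the 2 groups, 6 with limma-voom (7311) and 5 without 4502 and 4503 (5263). Leaving out 1 library gave 0 to 5, 0 and 0 to 4 such calls in the same order. The highest counts, 5 (4180) and 4 (3826), were both without 4502.

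Over all genes, Mtmr2 null versus control gave 46 calls by edgeR and 680 by DESeq2 on all libraries, 427 by DESeq2 on 2 groups, 108 by limma-voom, 91 with library totals, 0 by edgeR on 2 groups, 341 without a filter, 12 with Xist, 201 with the GC and length correction, 11 without 4502 and 4503 and 6 without 4506 and 4507. Niacin versus untreated Mtmr2 null gave 246 and, in that order, 1059, 444, 2007, 272 (not moved by over 1.5 times), 0, 573, 50, 463, 2223 and 0. Niacin versus control gave 0 and 1057, 5777, 7311, 0, 5586, 311, 0, 0, 5263 and 0. Leaving out 1 library gave 0 to 457, 0 to 4180 and 0 to 3826, the last 2 highest without 4502. Library totals moved the median gene under niacin by 0.11, and 193 of 272 calls were then higher against 120 of 246.

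Signs turned only for values close to 0 or resting on 1 library. Rhbdf1 in Mtmr2 null versus control was 0.073 with the GC and length correction, 0.067 without 4502 and 4503, and -0.19 to 0.10 with 1 library left out. Nrg1 was -0.093 to 0.94 in that comparison and Bace1 -0.049 to 0.29 with 1 library left out. Nrg1 under niacin was 0.45 with limma-voom, 0.044 with library totals, 0.14 with Xist, 0.54 without 4502 and 4503, 0.025 without 4506 and 4507 and -0.34 to 0.67 with 1 library left out. Adam10 under niacin was -0.058 with limma-voom, -0.012 with the GC and length correction, -0.082 without 4502 and 4503 and -0.042 to 0.21 with 1 library left out. Adam17 in niacin versus control was -0.030 with limma-voom, -0.024 without a filter, -0.0093 with the GC and length correction and -0.045 to 0.076 with 1 library left out. The cause of these changes was not tested. Per kilobase of the longest transcript, control levels were 0.173 for Nrg1, 23.1 for Adam17, 25.9 for Rhbdf1 and 8.81 for Rhbdf2. No paired analysis was possible because each replicate number names 1 library and no number is shared between groups. Nrg1, at 16 to 78 counts, is limited by depth. The other 7 genes, at 400 counts or more per library, are limited by the spread between libraries, whose source was not tested.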

Other observations

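Ratios to Sox10 in the same library, chosen after the values were seen and given without a test, set the receptors against a gene of the Schwann lineage. Erbb2 over Sox10 was 0.202 ± 0.00948 in control (SD, n = 4), 0.254 ± 0.0757 in Mtmr2 null and 0.194 ± 0.00752 in Mtmr2 null niacin. The niacin libraries (0.184 to 0.201) and the control libraries (0.189 to 0.209) overlapped on this ratio, whereas they did not overlap in the level of Erbb2. The Mtmr2 null libraries ran from 0.194 to 0.357. Erbb3 over Sox10 was 0.409 ± 0.0293 in control, 0.508 ± 0.0706 in Mtmr2 null and 0.489 ± 0.0270 in Mtmr2 null niacin, so that the niacin libraries (0.452 to 0.513) lay above the control libraries (0.384 to 0.451), the reverse of their order in level. Rhbdf2 over Sox10 was 0.0720 ± 0.00183, 0.110 ± 0.0346 and 0.0835 ± 0.0124 in the same order of groups, and Bace1 over Sox10 was 0.162 ± 0.0104, 0.185 ± 0.0633 and 0.199 ± 0.0100. Sox10 is itself regulated in Schwann cells, so these ratios compare transcripts and do not count cells. In level, niacin and control libraries did not overlap for 31.4% of all genes, and no such share is given for ratios.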
